A study of Homo sapiens with 6 samples.

Results

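The 41 genes described here are imprinted genes, chosen by symbol from textbook lists of loci at which the copies inherited from mother and father are expressed unequally. All 41 symbols matched a row of the count table, which held 57773 genes. They fall into 20 chromosomal domains. Of the 41, 8 had 0 counts in all 6 libraries, 6 had counts too low to be tested, and 27 passed the filter on low counts. The choice used no measured value, although the list was drawn up with earlier results of these data known.

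Polyadenylated RNA was sequenced from 2 genotypes of HAP1, an established leukaemia-derived human line with nearly a single set of chromosomes. Wild-type HAP1 cells (n = 3 libraries) were compared with HAP1 cells that carry the substitutions Y226A and F228A in CTCF (n = 3 libraries), called the mutant below. The edit was made with Cas9 and a repair oligonucleotide, and clones were kept after puromycin selection and sequencing of the locus. Descriptions of the 3 mutant libraries share a number, and the labels name no separate clones or cultures, and p-values then measure only how these libraries vary. The substitutions and any other property of an edited clone cannot be told apart.

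Imprinted genes lie in clusters that are governed by imprinting control regions, stretches of DNA that are methylated on the copy from only 1 parent. The textbook case is the IGF2-H19 domain, where CTCF binds the unmethylated maternal control region and insulates IGF2 from enhancers that then act on H19. On the paternal copy, methylation keeps CTCF off, and IGF2 is expressed instead. Other domains rely on long noncoding RNAs such as KCNQ1OT1 or on silencing of promoters. A near-haploid cell carries a single parental copy of most chromosomes, so these counts give the output of the copy that is present and no ratio between copies. The parental origin of each copy was not measured.

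Libraries held 7764009 to 9610028 gene counts, so that 3 counts in a library correspond to 0.312 to 0.386 CPM (gene counts scaled to library size, below with TMM factors). Across all genes, 21.2% of 14835 tested genes were called at an edgeR adjusted p under 0.05, 11.9% higher and 9.26% lower. CTCF mRNA itself went from 109 ± 3.14 to 135 ± 4.12 CPM (mean ± SD, n = 3 each, log2 fold change 0.31, SE 0.058, adjusted p = 0.00042). Of 20 blood-cell markers, 9 were at 0 in all libraries, among them PTPRC, SPI1 and GATA1, and their summed level ran from 483 to 503 CPM in the wild type and 464 to 500 CPM in the mutant. Most of that sum was TFRC, the transferrin receptor gene, with 379 ± 6.53 and 342 ± 24.0 CPM. Within the list TAL1, a blood transcription factor gene, rose from 31.9 ± 2.49 to 67.5 ± 3.58 CPM, and TFRC and RUNX1 fell. Of 12 fibroblast markers, 4 were at 0 (COL1A2, DCN, FAP and LUM), and the sum was 73.3 to 82.9 CPM in the wild type against 101 to 119 CPM in the mutant. Of its 5 tested genes PDGFRA, COL1A1 and ACTA2 rose, while TWIST1 and SNAI1 fell. The 10 epithelial markers had 3 at 0 and sums of 61.1 to 65.4 and 64.7 to 74.0 CPM, and of 4 tested EPCAM and ESRP1 rose and KRT8 fell. The marker genes named here were chosen after their values were seen. The part of these shifts in the results below was not tested.

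Of the 27 tested imprinted genes, 8 rose, 4 fell and 15 were not called in the mutant. The called share was 44.4%, against 21.2% of all tested genes, and the median log2 fold change was 0.03 against -0.001 over all genes. H19, IGF2, KCNQ1, UBE3A, SGCE, IGF2R, GNAS and TRAPPC9 rose, and MKRN3, MEST, COPG2 and L3MBTL1 fell. Wild-type and mutant libraries were fully separated for 16 of the 27 tested genes, which include the 12 called, and for 35.5% of all tested genes. Of the 12, 3 changed at least 2-fold, namely MKRN3, L3MBTL1 and MEST, which fell. MKRN3 and L3MBTL1 passed the filter on low counts through the wild type alone, and RTL1, with 5 wild-type and 18 mutant counts, did not pass it. MEST too would not have passed through the mutant alone, because mutant replicate 2, with 9 counts, lay just under the filter's level. The 12 called genes lie in 9 of the 20 domains, and members of 1 domain, that of UBE3A and MKRN3, were called in opposite directions. With DESeq2 the calls were 6 higher and 4 lower, and without single libraries 6 to 8 higher and 4 lower.

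**Figure D1:**
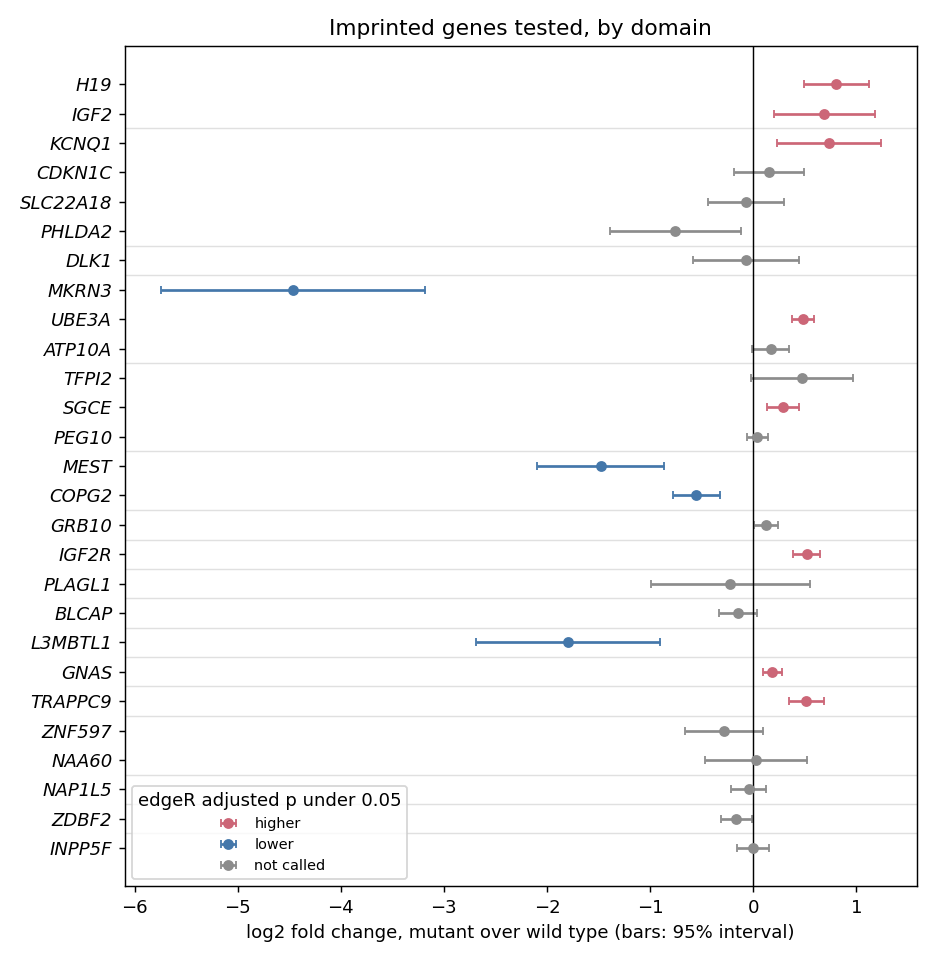
Log2 fold change of mutant over wild type (horizontal axis) for the 27 tested imprinted genes, with horizontal lines between domains. Bars are 95% intervals from the fit, and colour marks genes called higher, lower or not called; MKRN3 lies farthest to the left, followed by L3MBTL1 and MEST, and the 8 genes that rose lie between 0.18 and 0.80.

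Levels spanned more than 3 orders of magnitude. Per kilobase of exon, PEG10 had the highest wild-type mean, 377 CPM per kb, followed by GNAS at 73.3, NAP1L5 at 18.7, UBE3A at 16.3 and GRB10 at 14.6. H19, which is among the most abundant transcripts of many fetal tissues, stood at 3.54 CPM per kb, and IGF2 at 0.566. By the copy that textbooks give as active where a gene is imprinted, 21 of the 41 genes were classed as paternally expressed, 14 as maternally expressed and 6 as neither. The maternal class includes UBE3A, imprinted in neurons, and IGF2R, imprinted in some people. The 8 genes at 0 in all libraries were in the paternal class. The difference between the classes was not tested, members of a domain are not independent, and 4 of the 8 share exon bases with other genes of the same strand, as given below.

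**Figure D2:**
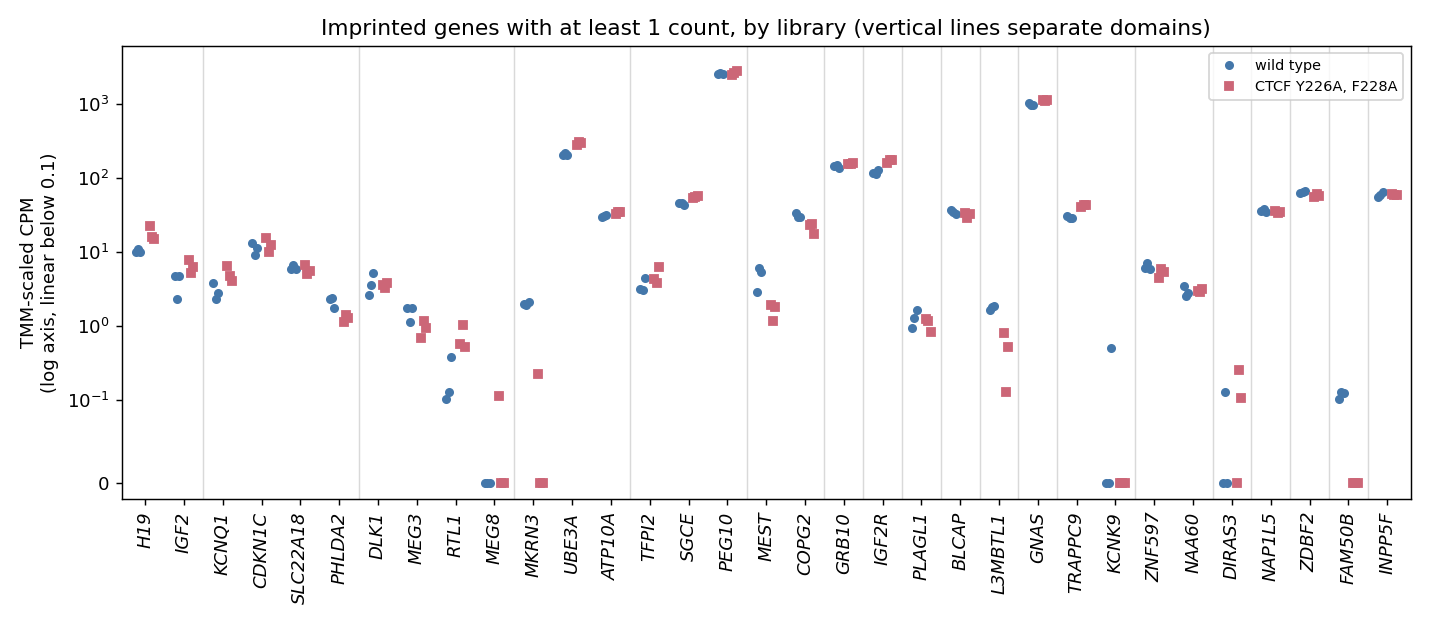
TMM-scaled CPM (vertical log axis, linear below 0.1) of the 33 imprinted genes with at least 1 count, with 3 wild-type libraries as circles and 3 mutant libraries as squares and vertical lines between domains. PEG10 and GNAS lie at the top, and the squares of MKRN3 lie at or near 0 while its circles lie near 2.

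H19 and IGF2, the known case of insulation by CTCF, were both higher in the mutant. H19 encodes a long noncoding RNA that is the precursor of miR-675 and lies at chr11:1995176-2001470 (GRCh38, minus strand). Its promoter window and the mature microRNAs in its exon are shown because H19 had the largest rise among the tested imprinted genes. All sequences are from RefSeq (GRCh38.p14), read 5′ to 3′ along the gene. Promoter windows run from 250 bases before to 50 bases after an annotated start. Capitals in the H19 window (chr11:2001217-2001516, minus strand) mark CG dinucleotides, and capitals in microRNAs mark the seed, bases 2 to 8.
H19 promoter window: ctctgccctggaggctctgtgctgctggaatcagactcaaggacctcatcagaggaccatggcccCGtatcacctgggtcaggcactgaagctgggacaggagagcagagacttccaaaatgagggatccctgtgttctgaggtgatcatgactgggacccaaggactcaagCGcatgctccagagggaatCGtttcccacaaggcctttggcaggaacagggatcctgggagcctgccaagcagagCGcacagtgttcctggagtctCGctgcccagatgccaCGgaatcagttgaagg
hsa-miR-675-5p: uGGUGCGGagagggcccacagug
hsa-miR-675-3p: cUGUAUGCccucaccgcuca
The window held 6 CG dinucleotides, and 66.3% of 35116 promoter windows held as many or more. The control region bound by CTCF lies outside it. Mature microRNAs are not measured by libraries of polyadenylated RNA.

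H19 had 9.87, 11.1 and 9.83 CPM in the wild-type libraries and 22.6, 15.9 and 15.1 CPM in the mutant libraries. Every mutant library lay above every wild-type library, and mutant replicate 1 stood highest. The means were 10.3 ± 0.703 and 17.9 ± 4.12 CPM (SD, n = 3 each), a 1.75-fold rise (log2 0.80, SE 0.15, edgeR adjusted p = 0.000451). Without mutant replicate 1 the log2 rise was 0.60 (adjusted p = 0.00191). H19 was not in the authors' deposited table of the comparison.

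IGF2 encodes insulin-like growth factor 2, a fetal growth factor, and lies at chr11:2129112-2149603 on the same strand. It had 4.78, 2.29 and 4.79 CPM in the wild type and 7.88, 5.18 and 6.23 CPM in the mutant. The groups did not overlap, but the lowest mutant library lay close to the upper 2 wild-type libraries. The means were 3.95 ± 1.44 and 6.43 ± 1.36 CPM, from 102 and 168 counts in all, a 1.61-fold rise (log2 0.69, SE 0.24, adjusted p = 0.0413). DESeq2 did not call it (adjusted p = 0.149). With edgeR the call was also lost with wild-type replicate 2 left out (log2 0.43, adjusted p = 0.185), mutant replicate 1 left out (log2 0.52, adjusted p = 0.12) or mutant replicate 3 left out (log2 0.71, adjusted p = 0.0693). In the authors' deposited table the log2 fold change of IGF2 was 0.69 with an adjusted p of 0.11. Of the exon bases of IGF2, 26.3% are shared with other annotated genes of the same strand, where reads can be left uncounted. The summed level of the 2 genes was 14.2 ± 0.737 CPM in the wild type and 24.3 ± 5.36 CPM in the mutant.

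The neighbouring KCNQ1 domain held 1 called gene. KCNQ1, a potassium channel gene, had 3.84, 2.29 and 2.77 CPM in the wild type and 6.40, 4.67 and 4.01 CPM in the mutant. The groups lay close together without overlap (log2 0.73, SE 0.24, adjusted p = 0.0353). DESeq2 did not call KCNQ1 (adjusted p = 0.16). With edgeR the adjusted p was 0.134 and 0.101 with wild-type replicate 2 or 3 left out, and 0.158 and 0.0568 with mutant replicate 1 or 2 left out. The noncoding RNA KCNQ1OT1, which silences this cluster on the copy that expresses it, had 0 counts in every library. CDKN1C, an inhibitor of cyclin-dependent kinases, was not called, at 11.3 ± 2.02 and 12.6 ± 2.73 CPM (log2 0.16, 95% interval -0.18 to 0.49). The transporter gene SLC22A18 was not called either, at 6.12 ± 0.433 and 5.80 ± 0.862 CPM. PHLDA2, a placental growth regulator, had 2.29, 2.42 and 1.76 CPM in the wild type and 1.14, 1.43 and 1.27 CPM in the mutant. These values did not overlap, yet with 55 and 33 counts the log2 value of -0.76 was not called (SE 0.31, adjusted p = 0.0847).

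Mutant replicate 1 had the highest level of the 3 mutant libraries for H19, IGF2, KCNQ1, CDKN1C and SLC22A18. Among called genes of other chromosomes, the same held for MKRN3, MEST and L3MBTL1. Of 17 genes listed as neighbours on chromosome 11, 8 were tested, and edgeR, DESeq2 and limma-voom called 0 of them, with 2 under an unadjusted p of 0.05. MRPL23, beside H19, had 58.1 ± 2.70 CPM in the wild type and 57.2 ± 4.04 CPM in the mutant. CD81, between the IGF2 and KCNQ1 domains, had 113 ± 6.68 and 109 ± 4.17 CPM. The plot in gene order shows the values of this stretch.

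**Figure D3:**
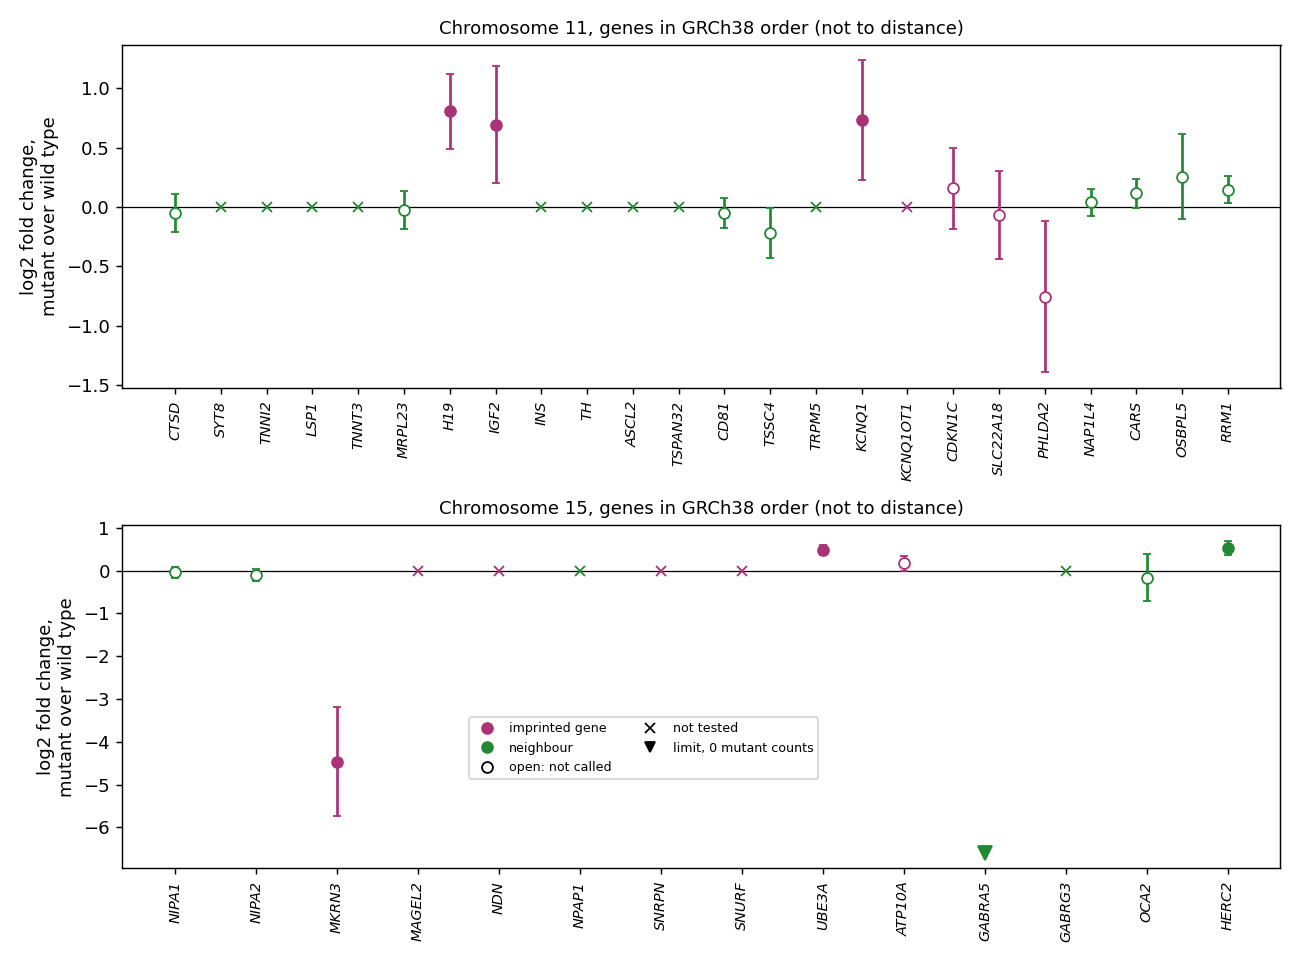
Log2 fold change of mutant over wild type (vertical axis) for imprinted genes and neighbours on chromosomes 11 and 15, in genome order and not to distance. Bars are 95% intervals, open symbols were not called, crosses were not tested, and the triangle is a limit for a gene with 0 mutant counts; H19, IGF2 and KCNQ1 are the called genes on chromosome 11, and MKRN3 and GABRA5 lie far below the rest on chromosome 15.

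On chromosome 15, in the domain whose loss causes Prader-Willi and Angelman syndromes, MKRN3 fell almost to 0 and UBE3A rose. MKRN3 encodes a RING-finger protein known for restraining the onset of puberty, and UBE3A a ubiquitin ligase whose loss in neurons causes Angelman syndrome. Their promoter windows are shown because the genes share a domain and changed in opposite directions. Capitals mark CG dinucleotides, and the windows are chr15:23565424-23565723 (plus strand) for MKRN3 and chr15:25438975-25439274 (minus strand) for UBE3A.
MKRN3 promoter window: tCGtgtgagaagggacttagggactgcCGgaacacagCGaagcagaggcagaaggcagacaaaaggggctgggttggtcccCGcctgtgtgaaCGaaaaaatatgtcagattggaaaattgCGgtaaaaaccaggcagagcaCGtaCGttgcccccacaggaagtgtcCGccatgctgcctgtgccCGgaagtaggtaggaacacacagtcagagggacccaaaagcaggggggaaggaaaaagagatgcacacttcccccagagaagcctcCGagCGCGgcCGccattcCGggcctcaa
UBE3A promoter window: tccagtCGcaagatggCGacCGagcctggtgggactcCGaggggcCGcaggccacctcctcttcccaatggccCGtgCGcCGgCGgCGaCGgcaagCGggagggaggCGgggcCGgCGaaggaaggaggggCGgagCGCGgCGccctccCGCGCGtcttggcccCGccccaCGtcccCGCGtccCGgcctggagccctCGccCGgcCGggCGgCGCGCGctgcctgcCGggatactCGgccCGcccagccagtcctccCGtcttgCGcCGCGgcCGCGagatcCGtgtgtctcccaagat
The MKRN3 window held 15 CG dinucleotides, close to the median of 14 over all windows. The UBE3A window held 44, a number reached by 4.19% of windows.

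MKRN3 had 19, 15 and 17 counts in the wild-type libraries and 2, 0 and 0 counts in the mutant libraries. The groups were far apart, and the 2 mutant counts came from mutant replicate 1. The wild-type level was 2.01 ± 0.121 CPM (SD, n = 3), and the ratio of wild type over mutant was 26.0 (95% counting interval 6.84 to 221, Clopper-Pearson, counting error only). The fitted log2 fold change was -4.46 (SE 0.62, edgeR adjusted p = 1.29e-05). Without mutant replicate 1 the fitted value was -7.11, which depends on the prior count because the mutant libraries left hold 0 counts. MKRN3 passed the filter through its wild-type libraries, so its test was possible only because it was expressed there.

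UBE3A had 204, 217.5 and 205 CPM in the wild type and 280, 300 and 297 CPM in the mutant. All mutant libraries lay well above all wild-type libraries, with a 1.40-fold rise (log2 0.49, SE 0.051, adjusted p = 3.23e-07). ATP10A, a lipid flippase gene next to UBE3A, had 29.6, 30.1 and 31.1 CPM in the wild type and 32.3, 34.99 and 34.8 CPM in the mutant. Its values did not overlap either, but it was not called (log2 0.17, 95% interval -0.01 to 0.35, adjusted p = 0.176). The other paternally expressed genes of the domain, SNRPN, SNURF, NDN and MAGEL2, had 0 counts in all 6 libraries. SNRPN and SNURF share 33.6% and 69.3% of their exon bases with other genes of the same strand, so reads of the shared part could have been left uncounted, while NDN and MAGEL2 share none.

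Genes beyond ATP10A were called in both directions. GABRA5, a GABA-A receptor subunit gene, fell at least 96.6-fold, from 284 counts over the wild type to 0 over the mutant. Like MKRN3, GABRA5 passed the filter through the wild type alone. HERC2, another ubiquitin ligase gene, chosen after its value was seen, rose by 0.53 on the log2 scale (SE 0.080). On the other side, NIPA1 and NIPA2 were not called, at log2 values of -0.04 and -0.09. The summed level of the 7 imprinted genes of the domain, nearly all of it UBE3A and ATP10A, was 241 ± 7.42 CPM in the wild type and 326 ± 11.9 CPM in the mutant.

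MEST and COPG2, which overlap at their ends on opposite strands of chromosome 7, both fell. MEST encodes a hydrolase-like protein expressed from the paternal copy and hosts miR-335 outside its annotated exons. Imprinting of COPG2, a coatomer subunit gene, is disputed. RefSeq lists several starts of MEST. The window chr7:130491835-130492134 (plus strand) is shown because it is the last of those that match a CTCF core motif, and capitals mark the match. In the microRNAs, capitals again mark the seed.
MEST promoter window: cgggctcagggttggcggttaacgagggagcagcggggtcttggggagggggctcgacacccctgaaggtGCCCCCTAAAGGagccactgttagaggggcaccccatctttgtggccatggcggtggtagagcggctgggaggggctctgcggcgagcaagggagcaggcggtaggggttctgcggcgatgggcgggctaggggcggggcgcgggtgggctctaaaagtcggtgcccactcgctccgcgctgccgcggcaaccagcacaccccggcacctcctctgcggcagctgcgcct
hsa-miR-335-5p: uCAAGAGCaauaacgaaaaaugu
hsa-miR-335-3p: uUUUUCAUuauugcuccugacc
Promoter windows were searched on both strands for a short core of the CTCF consensus motif, of which the capitals above are 1 match on the minus strand, and for the longer core repeated in the H19 control region. The short core occurred in 4.65% of all 35116 windows and the longer in 0.065%. Among 56 windows of the 26 imprinted genes in the table, 5 windows of 4 genes matched the short core (MEST, GNAS, FAM50B and INPP5F) and 0 the longer. The 2 matching windows of MEST overlap and hold the same site, so the 5 windows count that site more than once. Of these 4 genes, MEST fell, GNAS rose, INPP5F was not called and FAM50B was too low to be tested. A match is a description of letters and not of binding.

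MEST had 2.91, 5.98 and 5.29 CPM in the wild type and 1.94, 1.17 and 1.80 CPM in the mutant. The groups did not overlap, although wild-type replicate 1 lay nearer to the mutant than the other wild-type libraries did. The fall was 2.79-fold (log2 -1.48, SE 0.30, adjusted p = 0.000875), from 117 counts to 43, and the log2 value ran from -1.76 to -1.27 without single libraries. COPG2 had 33.2, 29.5 and 29.9 CPM in the wild type and 22.85, 23.6 and 17.3 CPM in the mutant, again without overlap. Its log2 fold change was -0.55 (SE 0.11, adjusted p = 0.000977). Exons of the opposite strand cover 27.4% of MEST and 8.87% of COPG2, and although the library kit was stranded, whether counting used the strand is not known here. CEP41, a centrosomal protein gene next to MEST, was not called (log2 0.12, adjusted p = 0.283).

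L3MBTL1, a chromatin compaction factor expressed from the paternal copy on chromosome 20, had 16, 14 and 15 counts in the wild type and 7, 1 and 5 counts in the mutant. All mutant libraries lay below all wild-type libraries, with means of 1.78 ± 0.114 and 0.486 ± 0.337 CPM (SD, n = 3 each). The log2 fold change was -1.79 (SE 0.43, edgeR adjusted p = 0.00414), and it was -2.30 without mutant replicate 1 and -1.41 without mutant replicate 2. MKRN3, L3MBTL1 and MEST, the genes that fell at least 2-fold, thus all had a wild-type mean below 5 CPM.

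Among the other genes that rose, IGF2R, TRAPPC9, SGCE and GNAS changed by less than 1.5-fold. IGF2R encodes the receptor that carries IGF2 to lysosomes for degradation, and its imprinting in human tissue varies between people. It had 115, 112 and 125.5 CPM in the wild type and 157, 175 and 173 CPM in the mutant, well apart (log2 0.52, SE 0.062, adjusted p = 1.80e-06). TRAPPC9, a subunit of a vesicle tethering complex, had 30.2, 29 and 29.1 CPM in the wild type and 40.6, 42.9 and 43.0 CPM in the mutant. The groups were well apart, at 29.4 ± 0.680 and 42.1 ± 1.37 CPM (log2 0.52, SE 0.083, adjusted p = 7.93e-05). KCNK9, the potassium channel gene next to it, had 4 counts in 1 wild-type library and 0 elsewhere. CHRAC1, on the other side of TRAPPC9 and chosen after its value was seen, fell by 0.51 on the log2 scale (SE 0.077).

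GNAS encodes the stimulatory G protein alpha subunit, and only some of its alternative transcripts are imprinted. It had 1020, 948 and 962 CPM in the wild type and 1117, 1088 and 1125 CPM in the mutant. The groups did not overlap, and the rise was 1.14-fold (log2 0.18, SE 0.045, adjusted p = 0.00489). Counts per gene do not separate its transcripts.

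SGCE and PEG10 start from opposite strands of 1 promoter region on chromosome 7, and only SGCE was called. SGCE, the epsilon-sarcoglycan gene of myoclonus dystonia, had 46.2, 46.0 and 42.6 CPM in the wild type and 52.7, 55.1 and 57.2 CPM in the mutant. The rise was small and without overlap (log2 0.29, SE 0.076, adjusted p = 0.00814), and the call was lost without wild-type replicate 3 (adjusted p = 0.0569) or mutant replicate 3 (0.0524). PEG10, derived from a retrotransposon and needed for the placenta, had 2480, 2590 and 2504 CPM in the wild type and 2425, 2626 and 2744 CPM in the mutant. These ranges overlapped (log2 0.04, 95% interval -0.06 to 0.14, adjusted p = 0.60). The difference between SGCE and PEG10 was not tested. TFPI2, a protease inhibitor gene of the same domain, was not called, at 3.53 ± 0.766 and 4.81 ± 1.35 CPM. Tested neighbours on chromosome 7 numbered 9, among them COBL and FIGNL1 beside GRB10 and CEP41 beside MEST. Of the 9, edgeR called 4, all higher, and DESeq2 called 2 (11.9% of all tested genes were called higher with edgeR). COBL is among the 4 and does not lie near PEG10. The 4 included CALCR, the calcitonin receptor gene (log2 1.36, SE 0.34, 20 counts against 53), and GNG11, a G protein gamma subunit gene (log2 0.86, SE 0.28), whose libraries overlapped. CALCR passed the filter through the mutant alone. PPP1R9A, also among the 4, is the next listed neighbour past PEG10 and was named after its value was seen. It rose from 1028 counts to 1507 without overlap (log2 0.52, SE 0.096). In the authors' deposited table the adjusted p was 0.0652 for CALCR, 0.0913 for GNG11 and 0.000154 for PPP1R9A.

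**Figure D4:**
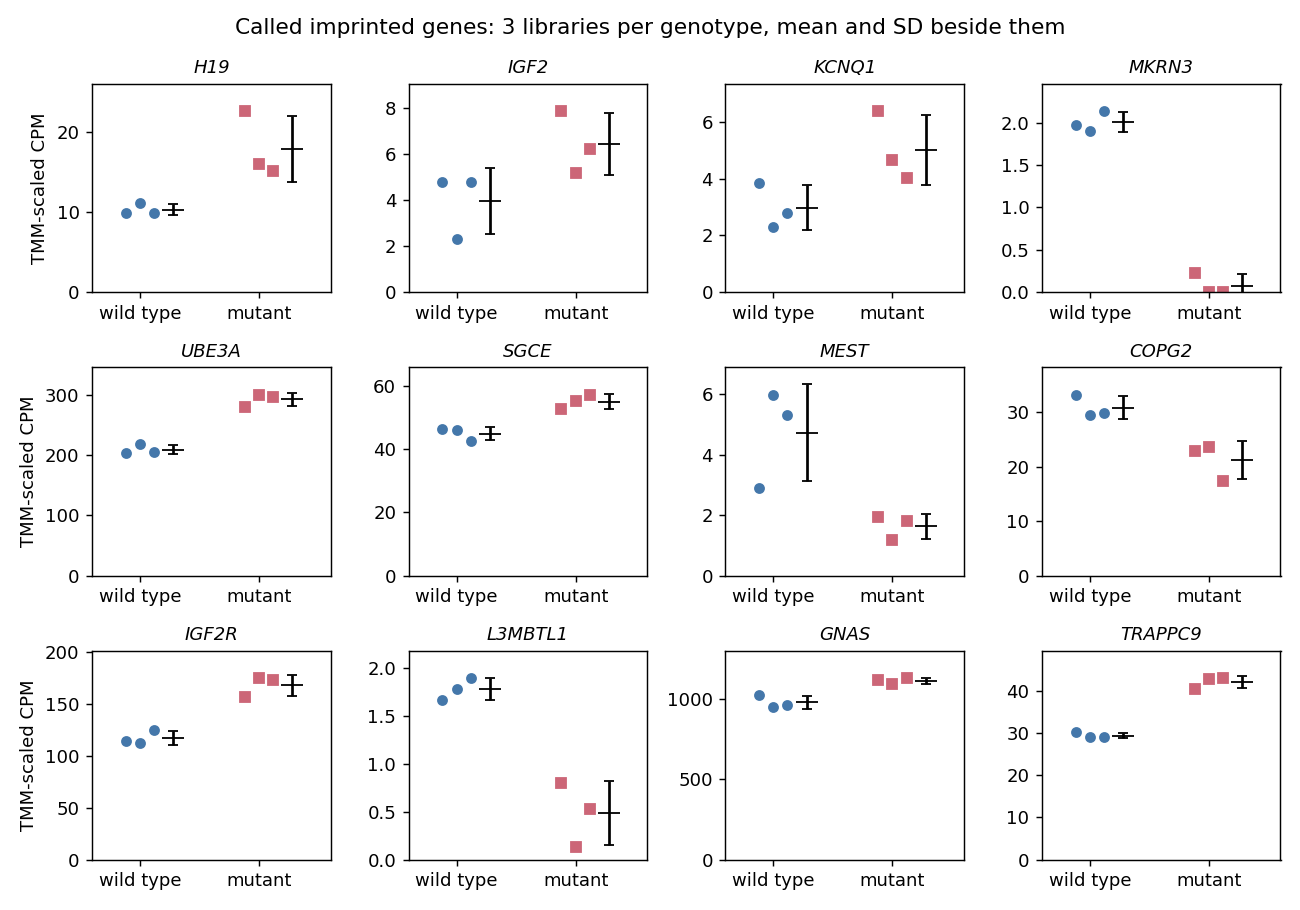
TMM-scaled CPM (vertical axes, each from 0) of the 12 called imprinted genes, with wild-type libraries as circles, mutant libraries as squares, and the mean and SD of 3 libraries as a line with a bar beside them. The genotypes do not overlap in any panel. Among the mutant libraries, replicate 1, the leftmost square, stands highest for H19, IGF2, KCNQ1, MKRN3, MEST and L3MBTL1.

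In the DLK1-MEG3 domain on chromosome 14 no gene was called. DLK1, a NOTCH-related membrane protein gene, had 2.60, 3.56 and 5.17 CPM in the wild type and 3.54, 3.24 and 3.80 CPM in the mutant, with full overlap (log2 -0.07, 95% interval -0.58 to 0.45). The noncoding RNA MEG3 had 17, 9 and 14 counts in the wild type and 6, 9 and 9 in the mutant, too low to be tested. RTL1, a retrotransposon-derived gene read from the strand opposite to the microRNAs of the domain, had 1, 1 and 3 counts in the wild type and 5, 8 and 5 in the mutant. With no filter beyond 1 count its log2 value was 1.75 (SE 0.71, adjusted p = 0.0898). MEG8 had 1 count in all. BEGAIN, a neighbour of DLK1 that encodes a postsynaptic protein, rose from 16 counts to 48 (log2 1.53, SE 0.39, adjusted p = 0.00628). It passed the filter through the mutant alone, and its adjusted p in the authors' deposited table was 0.0587.

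The remaining tested genes were not called. GRB10, an adaptor that restrains insulin and IGF receptor signalling, had 145, 147 and 137 CPM in the wild type and 155, 152 and 159 CPM in the mutant. These values did not overlap, but the log2 value of 0.12 missed the threshold (SE 0.055, adjusted p = 0.128). ZDBF2, a zinc-finger gene of chromosome 2, had 62.8 to 65.8 CPM in the wild type and 55.9 to 60.8 CPM in the mutant, also without overlap and without a call (log2 -0.16, adjusted p = 0.114). INPP5F, a phosphoinositide phosphatase gene, had 59.3 ± 4.01 and 59.0 ± 1.29 CPM (log2 -0.003, 95% interval -0.16 to 0.15). NAP1L5, a nucleosome assembly family gene, had 35.8 ± 1.66 and 34.7 ± 0.734 CPM.

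BLCAP, a small membrane protein gene, had 34.7 ± 1.81 and 31.4 ± 2.23 CPM, and NNAT, which lies within it on the other strand and encodes neuronatin, was at 0 in all libraries. ZNF597 and NAA60, divergent genes of chromosome 16, had log2 values of -0.28 (95% interval -0.66 to 0.10) and 0.03 (-0.46 to 0.52). PLAGL1, a zinc-finger transcription factor gene, had 32 and 28 counts (log2 -0.22, -0.99 to 0.55). DIRAS3, a RAS-related growth suppressor gene, had 1 and 3 counts, and FAM50B had 3 and 0, which is at or under the floor of 3 counts and gives no fold. PEG3 and ZIM2, zinc-finger genes that share a promoter on chromosome 19, were at 0 throughout. ZIM2 shares 41.2% and PEG3 12.9% of its exon bases with the other on the same strand, where reads can be left uncounted. At 0 counts, levels of up to 0.312 to 0.386 CPM in a library are allowed by counting error alone.

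**Figure D5:**
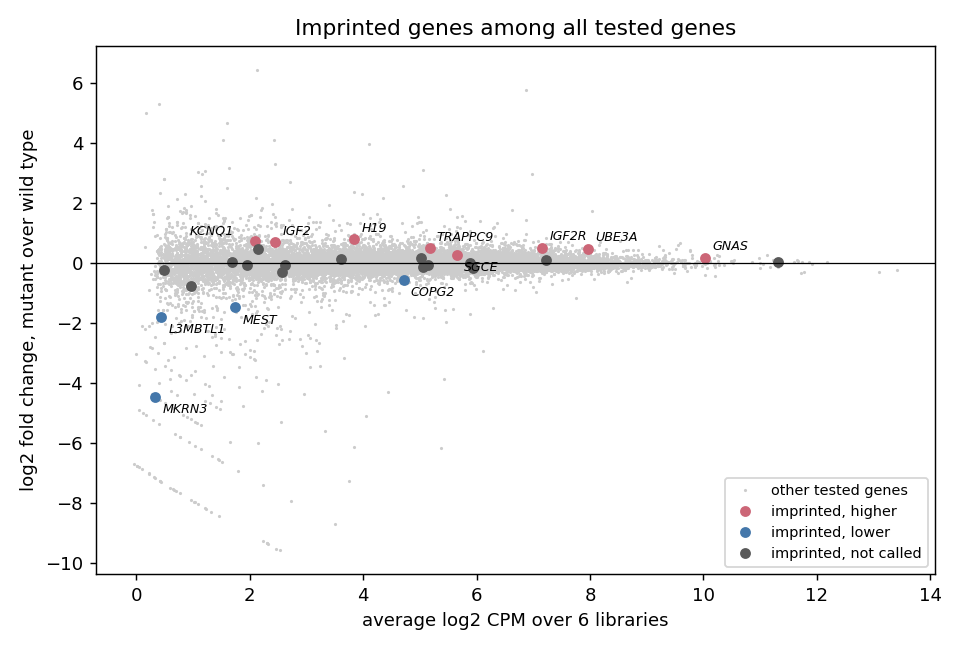
Log2 fold change of mutant over wild type (vertical axis) against average log2 CPM (horizontal axis) for all 14835 tested genes in grey, with the 27 tested imprinted genes as large points. MKRN3, L3MBTL1 and MEST lie at the low end of expression, and KCNQ1 and IGF2, which rose, lie close to MEST. GNAS and UBE3A, with small rises, lie at the high end, and COPG2, which fell, lies between.

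Genes that maintain or erase imprints changed in part. Of 18 tested genes on a list of methylation and imprint regulators, 4 rose, 3 fell and 11 were not called (38.9% called, 21.2% over all genes), with a median of 0.02. Besides CTCF, DNMT3A, a de novo DNA methyltransferase gene, rose from 13.4 ± 0.767 to 19.1 ± 1.70 CPM (log2 0.52, SE 0.12). The methylcytosine dioxygenase genes TET2 and TET3 rose by 0.57 (SE 0.074) and 0.44 (SE 0.076). The CTCF paralogue CTCFL, normally a testis gene, fell from 3.95 ± 0.929 to 0.759 ± 0.211 CPM and also passed the filter through the wild type alone. NLRP2, an oocyte factor linked to imprinting defects in offspring, likewise passed the filter through the wild type alone. It went from 572 counts over the wild type to 1 over the mutant. Wild type over mutant gave 584 (95% counting interval 104 to 23090). DNMT3L and NLRP7, of the same list and too low to be tested, had 25 and 11 counts over the wild type and 0 over the mutant. The maintenance methyltransferase gene DNMT1 (log2 0.12, adjusted p = 0.0943) and TRIM28, the KRAB corepressor gene (-0.02), were not called and were chosen after their values were seen, as was ZFP57, a zinc-finger protein gene that protects imprints, with 0 counts in all libraries. EHMT2, a widely expressed histone methyltransferase gene of the same list and also on chromosome 6, was at 0 too, and whether reads of these genes were lost in counting was not tested.

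The growth factor axis around IGF2 had 7 of 17 tested genes higher, 4 lower and 6 not called (64.7% called, 21.2% over all genes), with a median of 0.19. DESeq2 called 4 higher and 2 lower. With edgeR leaving out wild-type replicate 2 gave 3 higher and 2 lower, leaving out wild-type replicate 3 gave 2 lower, and leaving out mutant replicate 2 or 3 gave 4 higher. IGF2 and IGF2R themselves are among the 7. IRS4, an adaptor of the insulin and IGF receptors, rose from 1.98 ± 0.711 to 6.79 ± 1.18 CPM (log2 1.77, SE 0.25), and IGFBP5, an IGF-binding protein gene, by 0.45 (SE 0.073). The IGF2 mRNA-binding protein gene IGF2BP1 fell from 412 ± 13.3 to 340.2 ± 18.9 CPM (log2 -0.28), and PLAG1, a transcription factor known to act on IGF2 promoters, fell by 0.46 (SE 0.13).

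Neighbours and further imprinted genes were counted from lists as well. Over all domains, 58 of the listed neighbours were tested, of which 9 rose, 8 fell and 41 were not called (29.3% called, 21.2% over all genes). The 58 include FAM50A, which lies on chromosome X and adjoins no imprinted domain, and YY1, which is also on the list of regulators. DESeq2 called 5 higher and 5 lower, and without mutant replicate 2 the lower number was also 5. PXDC1, beside FAM50B, rose from 7.81 ± 0.848 to 14.1 ± 1.08 CPM. PHACTR2, near PLAGL1 and coding for a phosphatase and actin regulator, fell from 13.2 ± 1.33 to 8.16 ± 2.05 CPM. LTV1 lies between PHACTR2 and PLAGL1 and was named after its value was seen. It was called lower too (log2 -0.25, SE 0.081), although its libraries overlapped. Of 20 tested genes on a list of further, less certain imprinted genes, 2 rose, 4 fell and 14 were not called (30% called, 21.2% over all genes). NLRP2, 1 of the 4, and the uncalled DNMT1 are also on the list of regulators. LPAR6, a lysophosphatidic acid receptor gene within the imprinted RB1 locus, fell from 66 counts to 15 (log2 -2.14, SE 0.34) and passed the filter through the wild type alone. ZNF331, an imprinted zinc-finger gene of chromosome 19, fell by 0.59 (SE 0.11), and LIN28B, a repressor of let-7 microRNAs, by 0.42 (SE 0.068). GLIS3 rose by 0.71 (SE 0.12) and ZC3H12C by 0.36 (SE 0.12), and 1 gene of that list was called higher with DESeq2, upper-quartile scaling, no filter beyond 1 count, or without wild-type replicate 3 or any 1 mutant library.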

How the data were processed

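RNA was measured in 3 wild-type and 3 mutant HAP1 libraries. The authors deposited raw counts per gene without normalization. The build hg19 was named per the submitters' processing notes, beside TopHat2 2.1.1, HTSeq and DESeq2. Roles, annotation release and strand setting were not given in the sources used here. A table of log2 fold changes with p-values was also deposited by the authors and used for gene symbols and where named. Rows without a gene (22.4 to 24.3% of all entries in the count table, where unaligned reads stood at 0) were set aside. Of the sample columns, 0 were left out. Other symbols, locations and exon lengths came from GENCODE 29 on GRCh38, another build than the one named.

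Counts were tested in R 4.3.3 with edgeR 4.0.16 (filterByExpr, TMM, robust quasi-likelihood F test, two-sided, genotype as the only term, Benjamini-Hochberg over 14835 genes, threshold 0.05), after a check on simulated data. That simulation gave every gene the same spread and set changes in no gene as low as MKRN3 or L3MBTL1. It therefore cannot vouch for calls at their level. SEs come from the F statistic. Alternatives were DESeq2 1.42.0, limma-voom (limma 3.58.1), other scalings, no filter, the replicate block and leaving out each library. Every imprinted gene was described. From other lists, up to 6 called genes a list were named by size of change, if their average log2 CPM was 0 or more. Members and lists were chosen with earlier results of these data known, and parental classes are textbook assignments. An item is not reported here. Replicate numbers were not taken as pairs. Intervals and floors (3 counts) cover counting error only.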

Additional observations from a re-analysis of the deposited data

How the results depend on the processing

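Calls for H19, UBE3A, IGF2R, GNAS, TRAPPC9, MEST, COPG2, MKRN3 and L3MBTL1 held in direction and threshold under all 12 alternatives, and those lost for IGF2, KCNQ1 and SGCE are given above. Over 27 tested imprinted genes and 12 alternatives, 303 values kept direction and side of the threshold, 11 lost their call and 10 changed sign, all 10 for uncalled genes. With limma-voom INPP5F was 0.000812. Without single libraries CDKN1C ran from -0.014 to 0.29, SLC22A18 from -0.19 to 0.00477, DLK1 from -0.30 to 0.22, PEG10 from -0.0054 to 0.0896, NAA60 from -0.0559 to 0.18 and INPP5F from -0.0523 to 0.0471. The replicate block, fitted although same-numbered libraries correlated by only 0.0762, 0.0898 and -0.116, called 1959 genes higher and 1615 lower over all genes, and 8 and 4 imprinted genes, as without it. The largest correlation of each wild-type library was not always with its own number. With no filter beyond 1 count, 5 imprint regulators fell, and 1 further imprinted gene rose and 1 blood marker fell. With upper-quartile scaling 1 further imprinted gene rose. With DESeq2, 5 neighbours rose and 5 fell, 4 genes of the IGF axis rose and 2 fell, 1 further imprinted gene rose, 0 blood markers and 1 fibroblast marker fell and 1 epithelial marker rose. Without single libraries, lower neighbours numbered 5 to 7, IGF axis genes 3 to 5 higher and 2 to 4 lower, further imprinted genes 1 to 2 higher, blood markers 0 to 2 lower and fibroblast markers 1 to 2 lower. Causes of these shifts were not tested. Summed domain levels moved by less than 1 SD with CPM over total gene counts. Counting error limits values below about 10 counts a library, as for MKRN3, L3MBTL1 and MEG3 in the mutant and RTL1 in both genotypes.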
